A study of Homo sapiens with 16 samples.

Results

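The DNA damage checkpoint kinases ATM and ATR, their partners and the cell cycle proteins they act on were followed as mRNA levels in MDA-MB-231 cells, a triple-negative human breast cancer line. The 10 genes were chosen by name: ATM, ATR, ATRIP, CHEK1, CHEK2, CLSPN, TOPBP1, WEE1, CDC25A and TP53BP1. They are 10 of the 23228 genes in the count tables. All 10 passed the filter on low counts, as did 13948 genes in all. The choice went by symbol, with earlier results of these data known.

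In all, 16 libraries of total RNA were compared, 2 for each of 8 groups. Cells received sorafenib followed by methyl methanesulfonate (MMS), MMS alone, sorafenib alone, or the vehicle DMSO, and RNA was taken at 8 h and at 24 h. MMS is a DNA-alkylating agent, and sorafenib is an inhibitor of several kinases, RAF among them. Sorafenib was given at 1 µM. The dose of MMS is 40 µg/mL in the series text and 40 µM in the sample labels, and which is right could not be settled. In the combination, sorafenib was present for 12 h before MMS and the times count from MMS, so those cells had 12 h more of sorafenib than the cells given sorafenib alone. All cells were grown in the same serum-supplemented medium, and the series text speaks of 2 independent experiments. A single cell line was used.

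The checkpoint works as a relay. ATM is activated at DNA double-strand breaks, and ATR, held by its partner ATRIP, at single-stranded DNA coated with RPA. TOPBP1 activates ATR, and claspin, the product of CLSPN, carries the signal from ATR to the kinase CHK1, encoded by CHEK1. TP53BP1 encodes a chromatin-bound mediator of the break response, and CHEK2 the kinase CHK2, a main target of ATM. WEE1 puts an inhibitory phosphate on the cyclin-dependent kinases, and CDC25A takes such phosphates off. CDC25A protein is degraded after damage once the checkpoint kinases have marked it. Much of this regulation acts on proteins, which were not measured.

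CDC25A and CLSPN, the members with the largest increases under MMS, are shown by the 250 bases before their 5′-most RefSeq start (build GRCh38.p14), because neither window holds an annotated exon. The CDC25A window lies at chr3:48188418-48188667 and the CLSPN window at chr1:35769979-35770228, both on the minus strand. Capitals mark matches to an E2F site or a CCAAT box, and a CCAAT box on the opposite strand reads ATTGG here.
CDC25A: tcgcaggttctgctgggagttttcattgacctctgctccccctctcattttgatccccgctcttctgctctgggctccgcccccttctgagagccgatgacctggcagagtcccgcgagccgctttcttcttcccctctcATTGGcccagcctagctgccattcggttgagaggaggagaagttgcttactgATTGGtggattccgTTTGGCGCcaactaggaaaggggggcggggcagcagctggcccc
CLSPN: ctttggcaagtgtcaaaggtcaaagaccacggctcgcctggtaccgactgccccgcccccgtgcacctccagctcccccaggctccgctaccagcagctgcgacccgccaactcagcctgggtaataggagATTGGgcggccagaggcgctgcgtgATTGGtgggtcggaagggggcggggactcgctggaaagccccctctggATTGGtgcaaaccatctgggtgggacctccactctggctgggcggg
The CDC25A window held 1 E2F match, TTTGGCGC, at bases 44 to 37 before the start, and 2 CCAAT boxes at bases 110 to 106 and 58 to 54. The CLSPN window held 3 CCAAT boxes, at bases 119 to 115, 94 to 90 and 46 to 42, and none of the E2F letters. The E2F letters searched on both strands were TTTCCCGC, TTTCGCGC, TTTGCCGC and TTTGGCGC, which 2.79% of 35116 windows of the same length held. The CCAAT box was held by 32% of windows, and the cell cycle homology region motif TTTGAA, absent from both windows, by 13.3%. The matches did not overlap each other. They describe letters and not binding. A window was found for 9 of the 10 members, all except WEE1.

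Levels are CPM, a gene's reads scaled to the same total of gene reads in every library. In each pair of CPM values the library whose title begins MDA231 precedes the one whose title begins MDAMB231. Differences are log2 changes with their standard errors (SE) from edgeR's quasi-likelihood test, with p-values adjusted by the Benjamini-Hochberg method over all 13948 genes, and a gene was called at an adjusted p under 0.05. Log2 changes also use edgeR's TMM library factors and CPM does not, so the direction of a small difference can disagree between them. Where the CPM values of single groups are said not to overlap, the share of all genes that separated likewise was not computed. With so few libraries a group, such a gap describes the values and is not by itself evidence of a change. Gene reads per library ran from 16774156 to 26448212 with a median of 20348720. Read counts of the members in single libraries ran from 113 for CHEK2 to 7038 for CLSPN. Vimentin, a mesenchymal marker that MDA-MB-231 cells carry, stood at 1479 to 2476 CPM, and ESR1 and PGR, the hormone receptors the line lacks, stayed at or below 0.224 and 0.674 CPM. 

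Markers of other cell types were present at low to moderate levels, and some moved with MMS or with sorafenib alone. Of 6 luminal markers, KRT19 reached 302 CPM, EPCAM 19.3, GATA3 10.7 and CDH1 9.34 CPM. Of 4 fibroblast markers, COL1A1 had 5.34 to 18.6 CPM and PDGFRB 1.04 to 12.1 CPM, while FAP and DCN were at 0 in at least 1 library. Of 3 endothelial markers, PECAM1 reached 6.81 and CDH5 2.24 CPM, and VWF was at 0 in at least 1 library. Of 3 leukocyte markers, CD68 had 90.1 to 164 CPM and PTPRC at most 1.36 CPM, and CD3E was at 0 in at least 1 library. At 24 h the summed luminal level was 125 to 146 CPM with the combination and 121 to 174 CPM with MMS, against 195 to 323 CPM in DMSO. The summed fibroblast level was 15.2 to 16.9 CPM with the combination and 9.97 to 13.7 CPM with MMS, against 20.5 to 21.1 CPM in DMSO. For the endothelial sum the values were 0.531 to 0.612 CPM and 0.927 to 1.42 CPM, against 7.72 to 8.16 CPM in DMSO. The leukocyte sum was 95.4 to 122 CPM with the combination and 97.3 to 126 CPM with MMS, against 121 to 164 CPM in DMSO. The luminal, fibroblast and endothelial sums were thus lower with MMS at 24 h, without overlap. The mesenchymal sum (VIM, CD44, AXL, MSN and LGALS1) was lower too, at 4564 to 4963 CPM with MMS, against 5724 to 6435 CPM in DMSO. With sorafenib alone at 24 h, the endothelial sum was 2.84 to 3.26 CPM, below DMSO. The fibroblast sum was 29.6 to 31.0 CPM, above DMSO, and the other sums overlapped DMSO. At 8 h the fibroblast sum was 7.03 to 7.37 CPM with MMS, against 11.4 to 14.3 CPM in DMSO, and the endothelial sum 1.25 to 1.36 CPM, against 2.91 to 4.41 CPM. The mesenchymal sum at 8 h was 4815 to 5502 CPM with MMS, against 5917 to 6603 CPM in DMSO. The luminal and leukocyte sums overlapped between MMS and DMSO at 8 h. With sorafenib alone at 8 h, the endothelial sum was 1.61 to 1.73 CPM, and the other sums overlapped DMSO. The part of these genes in the changes of the members was not tested.

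The members covered a wide range of levels in untreated cells. Per kilobase of merged exon, CLSPN had the highest level of the 10 in the 4 DMSO libraries, 28.4 CPM per kb (range 22.2 to 32.7). CDC25A averaged 17.5 CPM per kb (14.3 to 22.1), TOPBP1 15.2 (13.1 to 16.1) and CHEK1 14.2 (13.4 to 15.1), and the ranges of these 3 overlapped. WEE1 followed at 7.07 CPM per kb (6.56 to 7.32). ATR averaged 5.21 CPM per kb, TP53BP1 5.06 and ATM 4.76, again with overlapping ranges. ATRIP at 3.42 CPM per kb (2.89 to 4.03) and CHEK2 at 1.75 CPM per kb (1.50 to 1.97) were lowest. These lengths sum every annotated exon of GENCODE v29, which lowers the figure for genes with many transcripts, and a later build was used for them than for the counts.

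Some of the counts may hold or lose reads at shared sequence. Exons of ATRIP overlap TREX1, those of CHEK1 overlap STT3A and those of WEE1 overlap RF01210 on the same strand. On the other strand, exons of CLSPN overlap AL354864.1, those of TOPBP1 overlap TFP1 and those of ATR overlap AC109992.1. Exons of ATM overlap NPAT and C11orf65, those of TP53BP1 overlap TUBGCP4 and those of CHEK2 overlap HSCB on the other strand, and whether counting used strand is not given in the sources used here. CHEK2 also has 4 named pseudogenes, and reads that matched several places made up 29.5% to 31.5% of each file and were left out of gene counts. Values of these genes are uncertain to that extent. CDC25A alone had no overlap with exons of another gene.

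**Figure D1:**
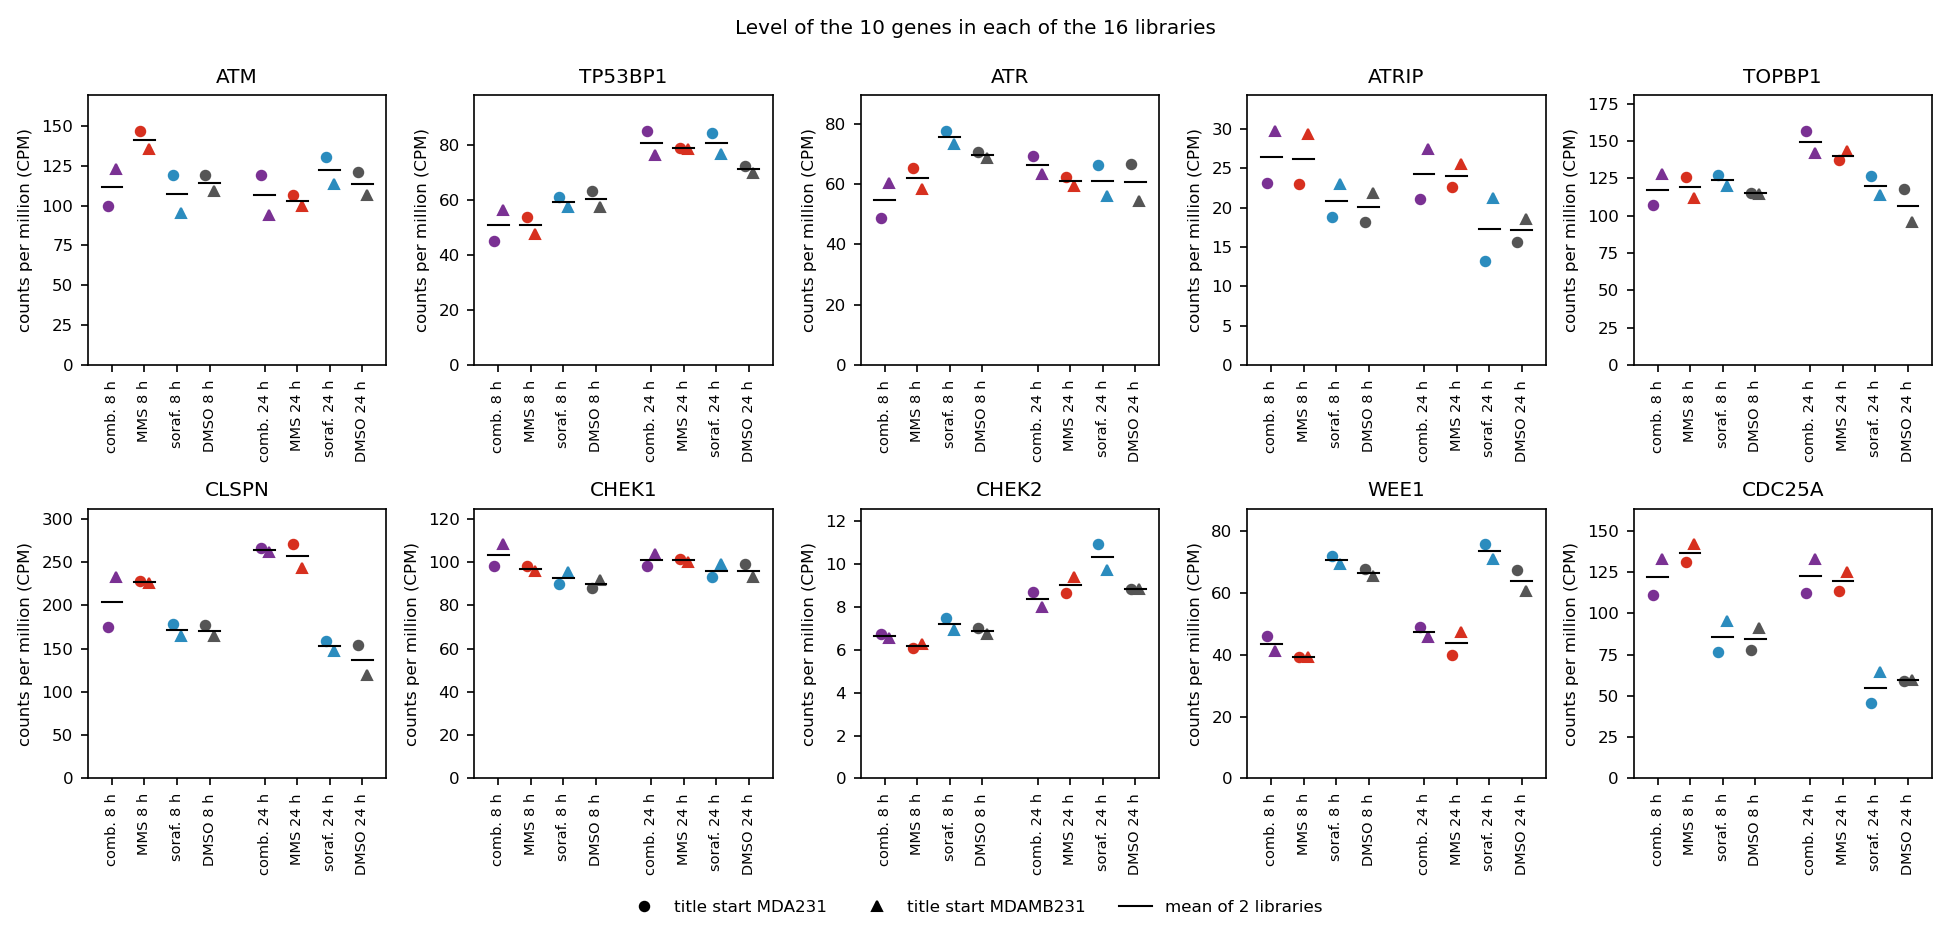
CPM of each of the 10 genes in the 16 libraries, with the groups along the horizontal axis; a point is 1 library, its shape the title start, and the line the mean of 2 libraries. WEE1 stands at 39.3 to 49.1 CPM in the 8 libraries with MMS and at 60.7 to 75.9 CPM in the 8 without, and CDC25A at 111 to 142 CPM and 45.8 to 95.1 CPM.

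MMS alone moved WEE1 and CDC25A, which act on the cyclin-dependent kinases in opposite ways, in opposite directions at both times. WEE1, the inhibitory kinase, fell to 0.606 of its DMSO level at 8 h and to 0.658 at 24 h. CDC25A, an activating phosphatase, rose 1.66-fold at 8 h and 1.94-fold at 24 h. The other CDC25 genes, CDC25B and CDC25C, fell at both times. CLSPN, the claspin gene, rose 1.36-fold at 8 h and 1.81-fold at 24 h, and TOPBP1, the ATR activator, rose 1.27-fold at 24 h. ATM, ATR, ATRIP, CHEK1, CHEK2 and TP53BP1 did not pass the test at either time. At 8 h, 2 of the 10 members rose and 1 fell, against 26.5% of all genes called (14.5% higher and 12% lower). At 24 h, 3 rose and 1 fell, against 31.5% of all genes called (15.2% higher and 16.3% lower). With 10 members these shares lie near the background. With the title start of the libraries as a replicate block, 5 members were called at 8 h, against 43.3% of all genes, and 5 at 24 h, against 48.3%. The block added ATM and ATRIP at 8 h and ATRIP at 24 h. The median log2 change of the members was 0.12 at 8 h and 0.06 at 24 h, beside medians of -0.00 and 0.00 over all genes.

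ATM had 147 and 135 CPM after 8 h of MMS, against 119 and 109 CPM in DMSO. Both MMS libraries lay above both DMSO libraries. The log2 change was 0.34 ± 0.15 (SE, n = 2 each), which edgeR did not call (adjusted p = 0.125). With the title start as a replicate block, the adjusted p was 0.0152. After 24 h of MMS, ATM had 107 and 99.5 CPM, against 121 and 107 CPM in DMSO, a log2 change of -0.20 ± 0.15 (adjusted p = 0.367). The 24 h groups were separated by less than rounding shows. The change at 24 h minus that at 8 h was -0.54 ± 0.22, with an adjusted p in edgeR of 0.152 without the block and 0.0154 with it, where 25.5% of all genes were called.

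TP53BP1 had 53.9 and 47.7 CPM after 8 h of MMS, against 63.3 and 57.4 CPM in DMSO, and the groups did not overlap. Its log2 change of -0.21 ± 0.12 was not called (adjusted p in edgeR = 0.233). At 24 h it had 79.0 and 78.5 CPM with MMS, against 72.5 and 69.8 CPM in DMSO, a log2 change of 0.09 ± 0.12 (adjusted p = 0.589). Neither time gave a difference larger than the spread allowed for.

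ATR, the kinase of stalled forks, had 65.2 and 58.5 CPM after 8 h of MMS, against 70.6 and 68.6 CPM in DMSO. The log2 change was -0.13 ± 0.13 (adjusted p in edgeR = 0.524). At 24 h it had 62.3 and 59.5 CPM with MMS, which lay inside the span of 66.8 and 54.5 CPM in DMSO, a log2 change of -0.05 ± 0.13 (adjusted p = 0.826).

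ATRIP, the obligate partner of ATR, had 23.0 and 29.4 CPM after 8 h of MMS, against 18.2 and 21.9 CPM in DMSO. After 24 h it had 22.6 and 25.5 CPM with MMS, against 15.7 and 18.5 CPM in DMSO. Both MMS libraries lay above both DMSO libraries at each time, which alone does not show a change. The libraries with the title start MDAMB231 were the higher ones throughout. The log2 changes were 0.42 ± 0.22 and 0.44 ± 0.23, and edgeR called neither (adjusted p = 0.193 at 8 h and 0.161 at 24 h). With the replicate block both were called, at adjusted p = 0.00468 and 0.00441. ATRIP is the member whose calls turned most on the block, since it also passed with the block only in the combination at both times.

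TOPBP1 had 126 and 112 CPM after 8 h of MMS, on either side of the 115 CPM of each DMSO library, a log2 change of 0.09 ± 0.12 (adjusted p in edgeR = 0.642). After 24 h it had 137 and 143 CPM with MMS, against 118 and 95.8 CPM in DMSO. The 24 h groups did not overlap, and TOPBP1 was called with a log2 change of 0.34 ± 0.12 (adjusted p in edgeR = 0.0460). The call at 24 h was lost without MMS replicate 1 (adjusted p = 0.123), without MMS replicate 2 (0.114), without DMSO replicate 2 (0.289) and in a fit of the 4 compared libraries alone (0.0963).

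CLSPN had 228 and 225 CPM after 8 h of MMS, against 177 and 165 CPM in DMSO. At 24 h its level was 271 and 244 CPM with MMS, against 154 and 120 CPM in DMSO. Neither time showed overlap. The log2 change was 0.44 ± 0.14 at 8 h (adjusted p in edgeR = 0.0365) and 0.86 ± 0.14 at 24 h (adjusted p = 0.000985). The 8 h call was lost without any one of the 4 libraries: the adjusted p was 0.132 without MMS replicate 1, 0.128 without MMS replicate 2, 0.0895 without DMSO replicate 1 and 0.194 without DMSO replicate 2. The 24 h call held in each such fit. The change at 24 h minus that at 8 h was 0.41 ± 0.20 (adjusted p = 0.235), so a larger effect at the later time was not called.

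CHEK1 had 98.0 and 95.9 CPM after 8 h of MMS, against 88.2 and 91.9 CPM in DMSO. It had 101 and 100 CPM after 24 h of MMS, against 99.1 and 92.9 CPM in DMSO. The MMS libraries had the higher CPM at both times, before TMM factors. The log2 changes, which use those factors, were 0.14 ± 0.08 (adjusted p in edgeR = 0.197) and 0.02 ± 0.08 (adjusted p = 0.899). The 95% interval at 24 h ran from -0.16 to 0.19 on the log2 scale. CHEK1, the kinase gene downstream of claspin, had the smallest SE of the 10 members at both times and no called difference.

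CHEK2, the least abundant of the 10, had 6.09 and 6.26 CPM after 8 h of MMS, against 7.03 and 6.73 CPM in DMSO. At 24 h the MMS libraries had 8.63 and 9.40 CPM, against 8.83 and 8.86 CPM in DMSO. The 8 h groups did not overlap and the 24 h groups did. The log2 changes of -0.12 ± 0.13 and -0.02 ± 0.13 were not called (adjusted p in edgeR = 0.567 and 0.914).

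WEE1 had 39.3 CPM in both libraries after 8 h of MMS, against 67.7 and 65.5 CPM in DMSO. At 24 h its level was 40.0 and 47.5 CPM with MMS, against 67.4 and 60.7 CPM in DMSO. The gap was wide of the replicate spread at both times. The log2 change was -0.72 ± 0.09 at 8 h (adjusted p in edgeR = 0.000172) and -0.60 ± 0.09 at 24 h (adjusted p = 0.000671), and both calls held without each library in turn.

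CDC25A had 131 and 142 CPM after 8 h of MMS, against 77.9 and 91.0 CPM in DMSO. After 24 h it had 114 and 125 CPM with MMS, against 58.9 and 59.8 CPM in DMSO. Every MMS library lay above every DMSO library, across times as well. The log2 change was 0.73 ± 0.15 at 8 h (adjusted p in edgeR = 0.00402) and 0.95 ± 0.16 at 24 h (adjusted p = 0.000872), and both calls held without each library in turn. The levels are of mRNA, and the damage-induced loss of the CDC25A protein acts after translation.

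**Figure D2:**
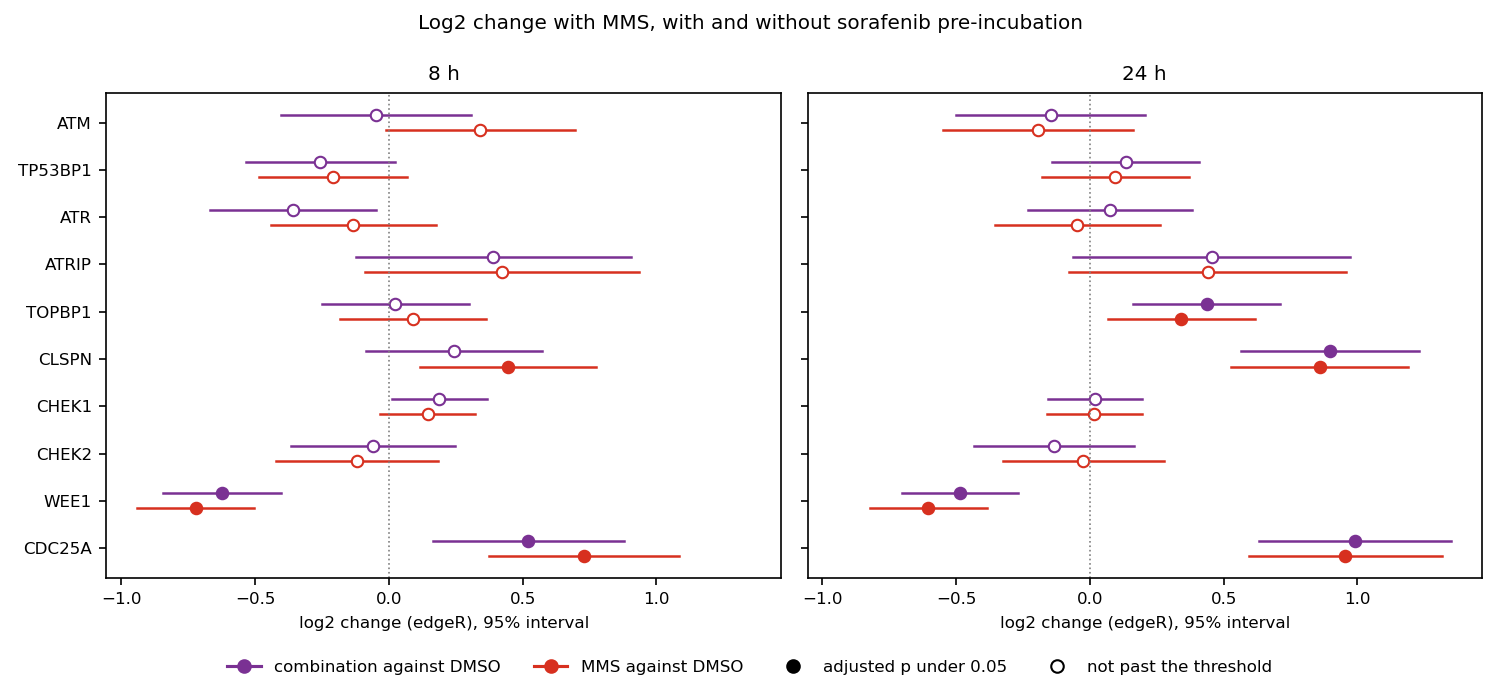
Log2 change of each gene against DMSO for the combination and for MMS alone at 8 h and 24 h; points are edgeR estimates, lines their 95% intervals, and filled points have an adjusted p under 0.05. CDC25A lies at 0.52 to 0.99 and WEE1 at -0.72 to -0.49 in all 4 comparisons, all filled, while CLSPN lacks a call in the combination at 8 h and TOPBP1 is called at 24 h only.

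The combination of sorafenib and MMS moved WEE1 and CDC25A in the same directions against DMSO as MMS alone did. The DMSO libraries are shared between these comparisons, so their values stand side by side as description. At 8 h, 1 of the 10 members rose and 1 fell, against 24.3% of all genes called (12.5% higher and 11.8% lower). At 24 h, 3 rose and 1 fell, against 33.4% (16.2% higher and 17.2% lower). The members' median log2 change was -0.01 at 8 h and 0.10 at 24 h, beside 0.03 and 0.01 over all genes.

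WEE1 had 46.0 and 41.1 CPM after 8 h of the combination and 49.1 and 45.8 CPM after 24 h, all below the 60.7 CPM of the lowest DMSO library. Its log2 change was -0.62 ± 0.10 at 8 h (adjusted p in edgeR = 0.00055) and -0.49 ± 0.09 at 24 h (adjusted p = 0.00219). CDC25A had 111 and 133 CPM after 8 h and 112 and 133 CPM after 24 h, all above the 91.0 CPM of the highest DMSO library. Its log2 change was 0.52 ± 0.15 at 8 h (adjusted p = 0.0274) and 0.99 ± 0.16 at 24 h (adjusted p = 0.000583). The 8 h call of CDC25A was lost without combination replicate 2 (adjusted p = 0.164), without DMSO replicate 1 (0.162), without DMSO replicate 2 (0.056) and in a fit of the 4 compared libraries alone (0.0535).

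CLSPN had 267 and 262 CPM after 24 h of the combination, against 154 and 120 CPM in DMSO, and rose by a log2 change of 0.90 ± 0.14 (adjusted p in edgeR = 0.000641). At 8 h its combination libraries were far apart, at 175 and 232 CPM, and the lower one lay within the DMSO values of 177 and 165 CPM. That log2 change of 0.24 ± 0.14 was not called (adjusted p = 0.251). TOPBP1 had 157 and 142 CPM after 24 h of the combination, against 118 and 95.8 CPM in DMSO, and rose by 0.44 ± 0.12 (adjusted p = 0.0142). Without combination replicate 1 its adjusted p was 0.0903, without DMSO replicate 2 it was 0.129, and in the 4 libraries alone 0.0554. ATRIP had 21.2 and 27.5 CPM after 24 h, against 15.7 and 18.5 CPM in DMSO, a log2 change of 0.45 ± 0.22 with an adjusted p in edgeR of 0.143 without the block and 0.00309 with it.

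The combination libraries at 8 h differed from each other more than most pairs did. In the one with the title start MDA231, ATM had 99.8 CPM, ATR 48.8 CPM and TP53BP1 45.1 CPM. In the one with the title start MDAMB231 they had 123, 60.5 and 56.6 CPM. In the other 7 groups these 3 genes were higher in the MDA231 library. ATR in DMSO at 8 h had 70.6 and 68.6 CPM, above both combination libraries, and its log2 change of -0.36 ± 0.13 was not called by edgeR (adjusted p = 0.0732). It was called with the replicate block (adjusted p = 0.0127), by DESeq2 (adjusted p = 0.0431) and by edgeR without combination replicate 2 (adjusted p = 0.0286). TP53BP1, at -0.26 ± 0.12 (adjusted p = 0.151), was called without combination replicate 2 only (adjusted p = 0.0301). ATRIP had 23.1 and 29.8 CPM at 8 h and a log2 change of 0.39 ± 0.22 (adjusted p = 0.240, and 0.0102 with the block). With the block, 4 of the 10 members were called at 8 h, against 39.5% of all genes, and 5 at 24 h, against 50.5%. CHEK1 had 98.3 and 108 CPM, above both DMSO libraries, with a log2 change of 0.19 ± 0.08 (adjusted p in edgeR = 0.0981).

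Sorafenib alone gave no called change in any of the 10 genes. EdgeR called 0 of 10 at 8 h, against 0.394% of all genes, and 0 of 10 at 24 h, against 0.817%. No member had an unadjusted p under 0.05 at either time, and DESeq2 also called 0. At 8 h the log2 changes ran from -0.08 for ATM to 0.13 for ATR, and the widest 95% interval, that of ATRIP, ran from -0.44 to 0.59. At 24 h they ran from -0.12 for CDC25A to 0.22 for CHEK2, and the widest interval, again of ATRIP, from -0.53 to 0.52. WEE1 had 75.9 and 71.0 CPM after 24 h of sorafenib, against 67.4 and 60.7 CPM in DMSO. Both sorafenib libraries lay above both DMSO libraries, and the log2 change of 0.19 ± 0.09 was not called (adjusted p in edgeR = 0.606). Changes of the size seen for WEE1 and CDC25A under MMS at 24 h lie outside the 95% intervals for sorafenib, which ran from -0.03 to 0.41 for WEE1 and from -0.48 to 0.24 for CDC25A.

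Adding sorafenib before MMS gave no called change in the members either. Against MMS alone, edgeR called 0 of 10 at 8 h (0.624% of all genes) and 0 of 10 at 24 h (0.122%), with 1 member at an unadjusted p under 0.05 at 8 h, none at 24 h and none called by DESeq2. The 1 member was ATM, with 99.8 and 123 CPM in the combination at 8 h, against 147 and 135 CPM with MMS alone. The groups did not overlap, and the log2 change was -0.39 ± 0.15 (adjusted p in edgeR = 0.281). With the replicate block it was -0.38, with an adjusted p of 0.0349, against 9.51% of all genes called in that fit. Computed within the title starts, the log2 difference was -0.56 for MDA231 and -0.14 for MDAMB231. WEE1 differed by 0.10 ± 0.10 at 8 h and 0.12 ± 0.09 at 24 h, and CDC25A by -0.21 ± 0.15 and 0.04 ± 0.15 (edgeR).

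The interaction asks whether the effect of MMS differed with and without sorafenib. EdgeR called 0 of 10 members and 0% of all 13948 genes at each time, with 505 genes at an unadjusted p under 0.05 at 8 h and 304 at 24 h, none of them a member. DESeq2 called 0 members too. At 8 h the highest estimate was -0.0014 for WEE1 and the median -0.15, against 0.01 over all genes. The estimates of the members come from the same libraries, and that of CHEK1 changed sign in 4 of 8 fits that left out 1 library. At 24 h the highest was 0.16 for CDC25A and the median -0.06, against 0.01. At 8 h the lowest estimate was that of ATR, -0.36 ± 0.19, and at 24 h the lowest was that of CHEK2, -0.33 ± 0.18 (adjusted p in edgeR = 0.9999 for each). With intervals this wide, differences of that size were not detectable with 2 libraries a group.

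**Figure D3:**
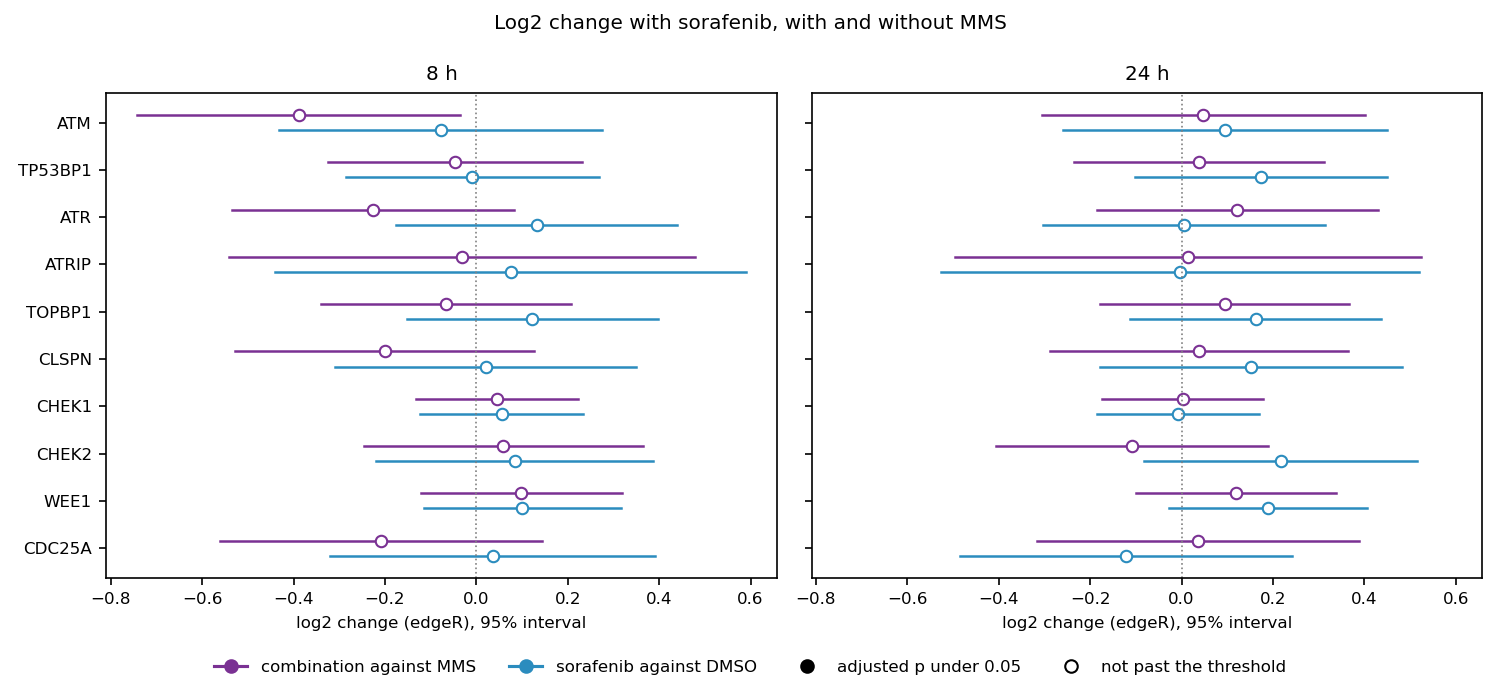
Log2 change with sorafenib for each gene, in cells given MMS (combination against MMS) and without MMS (sorafenib against DMSO), at 8 h and 24 h; points are edgeR estimates, lines their 95% intervals. All points are open, since 0 of 10 genes were called in each of the 4 comparisons, and ATM at 8 h with MMS (-0.39) is the one whose interval does not reach 0.

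Culture time alone was read from the DMSO groups. EdgeR called 0 of 10 members at 24 h against 8 h, and 0.66% of all genes, with 1 member higher and 2 lower at an unadjusted p under 0.05. CDC25A had 58.9 and 59.8 CPM at 24 h, against 77.9 and 91.0 CPM at 8 h, a log2 change of -0.54 ± 0.16 (adjusted p in edgeR = 0.119). DESeq2 called it (adjusted p = 0.0242), as did edgeR with the replicate block (adjusted p = 0.00148, against 13.6% of all genes). The DMSO level against which the MMS effect on CDC25A is read was thus lower at 24 h than at 8 h in these 4 libraries, while the MMS libraries stood at 114 and 125 CPM at 24 h and at 131 and 142 CPM at 8 h. CLSPN changed by -0.35 ± 0.14 (adjusted p = 0.253) and CHEK2 by 0.33 ± 0.13 (adjusted p = 0.238), neither called. For the effect of MMS at 24 h minus that at 8 h, edgeR called 0 of 10 members against 9.13% of all genes, with 1 member, ATM, at an unadjusted p under 0.05 and none called by DESeq2.

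Set apart by MMS alone, whatever the time and whether or not sorafenib was present, 2 members formed separate ranges. WEE1 ran from 39.3 through a median of 43.4 to 49.1 CPM in the 8 libraries with MMS, against 60.7, 68.5 and 75.9 CPM in the 8 without. CDC25A ran from 111 through 128 to 142 CPM with MMS, against 45.8, 70.3 and 95.1 CPM without. Such a gap was shown by 5.71% of all genes in the direction of WEE1 and by 8.07% in that of CDC25A. CLSPN ran from 175 through 238 to 271 CPM with MMS, against 120, 162 and 178 CPM without, and overlapped through the one combination library at 8 h. ATRIP overlapped over all libraries and separated within each title start, as 11.3% of genes did upward. This grouping was chosen after the values were seen.

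The rest of the pathway was read from lists of other genes, each set beside the share of all genes called in the same comparison. That share was 14.5% higher and 12% lower after 8 h of MMS, and 15.2% higher and 16.3% lower after 24 h. In the combination it was 12.5% higher and 11.8% lower at 8 h, and 16.2% higher and 17.2% lower at 24 h.

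After 8 h of MMS, 4 of 18 genes for damage sensors and clamp loaders rose and 0 fell, a number close to what the share over all genes gives. After 24 h, 9 rose and 1 fell. HUS1 and RAD1, parts of the checkpoint clamp, rose by 0.71 ± 0.10 and 0.48 ± 0.08 on the log2 scale at 8 h (edgeR, adjusted p = 0.000359 and 0.000721). RPA2, a subunit of the protein that coats single-stranded DNA, rose by 0.50 ± 0.10 at 8 h and 0.62 ± 0.10 at 24 h. RAD50, of the complex that binds DNA ends and recruits ATM, rose by 0.39 ± 0.13 and 0.64 ± 0.13. At 24 h, RAD1 rose by 0.59 ± 0.08 and RFC3, a clamp loader subunit, by 0.71 ± 0.15. The list's median was 0.13 at 8 h and 0.28 at 24 h, beside -0.00 and 0.00 over all genes. With the combination, 6 rose and 0 fell at 8 h, and 9 rose and 1 fell at 24 h.

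Of the mediators and kinase chaperones, 14 of the 15 listed symbols were in the files and tested. With MMS, 3 rose and 0 fell at 8 h, near the share over all genes, and 6 rose and 0 fell at 24 h. RIF1, a partner of 53BP1 at breaks, rose by 0.60 ± 0.14 on the log2 scale at 8 h. TIPIN, a fork protection factor that works with claspin, rose by 0.44 ± 0.11 at 8 h and 0.65 ± 0.11 at 24 h. RNF8, a ubiquitin ligase at breaks, rose by 0.35 ± 0.10 and 0.48 ± 0.10, while RNF168, the ligase that follows it, had 0.21 ± 0.09 at 8 h and was not called (adjusted p in edgeR = 0.0974). At 24 h, UIMC1, which brings a BRCA1 complex to ubiquitin at breaks, rose by 0.55 ± 0.09. TELO2, a chaperone of the ATM and ATR kinase family, rose by 0.53 ± 0.12. The median was 0.05 at 8 h and 0.23 at 24 h. With the combination, 2 rose and 1 fell at 8 h, and 6 rose and 0 fell at 24 h. With the replicate block, 6 rose and 0 fell with MMS at 8 h, where 43.3% of all genes were called. With the combination and the block, 5 rose and 3 fell at 8 h, against 39.5% of all genes called. At 24 h, 9 rose and 1 fell, against 50.5%.

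Of 14 other CDC25, WEE1-family and cyclin-dependent kinase genes, 3 rose and 6 fell after 8 h of MMS, and 4 rose and 4 fell after 24 h, with medians of -0.06 and -0.05. PLK1, a mitotic kinase, fell, with log2 changes of -1.24 at 8 h and -0.97 at 24 h, and CCNB1, the cyclin of mitotic entry, fell likewise, with -0.83 and -0.86. CCNA2, the A-type cyclin of S phase and G2, and CDK1, the kinase of mitotic entry, fell at 8 h, with -0.86 and -0.48. At 24 h these 2 genes had -0.27 and -0.01 and were not called (adjusted p in edgeR = 0.0593 and 0.911). For both, the MMS effect at 24 h minus 8 h was called (0.60 and 0.47, adjusted p in edgeR = 0.0204 and 0.0182). They were the 2 of the 14 called there, against 9.13% of all genes. At 24 h, PKMYT1, a kinase of the WEE1 family, rose by 0.87 ± 0.11, opposite to WEE1. CCNE2, a cyclin of S phase entry, rose by 0.70 ± 0.12. Opposite to CDC25A, CDC25B fell with -0.47 at 8 h and -0.39 at 24 h (adjusted p in edgeR = 0.00322 and 0.00863). CDC25C fell with -1.07 and -0.52 (adjusted p in edgeR = 0.000589 and 0.0313). The combination gave 4 risen and 6 fallen at 8 h, and 3 risen and 5 fallen at 24 h.

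Of 10 genes for phosphatases and turnover of the checkpoint kinases, 2 rose and 1 fell after 8 h of MMS, and 4 rose and 0 fell after 24 h, with medians of 0.10 and 0.15. In all, 3 and 4 of the 10 were called, near the 26.5% and 31.5% of all genes. SIAH2, a ubiquitin ligase, rose by 0.49 ± 0.10 on the log2 scale at 8 h and 0.30 ± 0.11 at 24 h. PPM1D, the phosphatase that switches the checkpoint off, rose by 0.36 ± 0.09 and 0.27 ± 0.09. BTRC, a subunit of the ligase that targets CDC25A and WEE1 proteins, fell at 8 h, with a log2 change of -0.37. USP28, a deubiquitinase, had -0.21 ± 0.11 at 8 h and was not called (adjusted p in edgeR = 0.171). At 24 h, PPP5C, a phosphatase, rose by 0.37 ± 0.09 and FBXW11, a paralog of BTRC, by 0.24 ± 0.08. The combination gave 1 risen and 2 fallen at 8 h, and 3 risen and 0 fallen at 24 h. With the block, 4 rose and 1 fell with MMS at 8 h, against 43.3% of all genes called. With the combination at 24 h, 4 rose and 1 fell with the block, against 50.5%.

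Most genes of G2 and mitosis fell with MMS, as WEE1 did. Of 15 genes of G2 and mitosis, 0 rose and 9 fell after 8 h of MMS, where 14.5% of all genes rose and 12% fell. After 24 h, 0 rose and 11 fell, where 15.2% of all genes rose and 16.3% fell. The medians were -0.52 and -0.48. With the combination, 0 rose and 10 fell at 8 h, and 1 rose and 9 fell at 24 h. TOP2A, the mitotic topoisomerase, fell at 8 h with a log2 change of -1.55 and had -0.41 at 24 h. Its MMS effect at 24 h minus 8 h was called (1.14, adjusted p in edgeR = 0.00274), the only 1 of this list. KIF20A, a mitotic kinesin, had -1.27 at 8 h and -1.30 at 24 h, the mitotic kinase gene AURKA -0.83 and -0.81, and DLGAP5, a spindle protein gene, -0.79 and -0.93. CCNB2, a mitotic cyclin, fell at 24 h, with -0.86. One gene of the list, AURKB, ran the other way at 24 h and was called with the replicate block only (adjusted p = 0.0596 without it and 0.0127 with it). The list's summed level was 2361 to 2738 CPM with the combination at 8 h and 2555 to 2564 CPM with MMS, against 4219 to 4460 CPM with sorafenib and 3992 to 4258 CPM in DMSO. At 24 h it was 3230 to 3421 CPM with the combination and 2997 to 3470 CPM with MMS, against 4880 to 5039 CPM with sorafenib and 4206 to 4461 CPM in DMSO. The libraries with MMS were thus below those without for WEE1 and for this sum alike.

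Of 20 genes of S phase and E2F control, 4 rose and 3 fell after 8 h of MMS, where 14.5% of all genes rose and 12% fell. After 24 h, 7 rose and 3 fell, where 15.2% of all genes rose and 16.3% fell. The medians were 0.08 and 0.19, so the list did not move one way. With the combination, 6 rose and 2 fell at 8 h, and 7 rose and 3 fell at 24 h. With the block, 11 rose and 2 fell with the combination at 8 h, against 39.5% of all genes called. RRM2, a subunit of ribonucleotide reductase, rose by 0.90 ± 0.08 on the log2 scale at 8 h and 1.03 ± 0.08 at 24 h, and CDC6, a loader of the replicative helicase, by 0.53 ± 0.07 and 0.55 ± 0.07. At 8 h, UHRF1, a factor of DNA methylation upkeep, fell, with a log2 change of -0.71, as did the helicase subunit gene MCM7, with -0.41. At 24 h, CDT1, which works with CDC6, rose by 0.90 ± 0.12, and the helicase subunit gene MCM6 fell, with -0.90. UHRF1 had 0.20 at 24 h and was not called (adjusted p in edgeR = 0.151). The MMS effect at 24 h minus 8 h was called for UHRF1 (0.91) and MCM6 (-0.86), 1 gene of the list higher and 1 lower. The summed level was 4093 to 4210 CPM with the combination at 8 h and 3799 to 3953 CPM with MMS, against 3627 to 3710 CPM with sorafenib and 3450 to 3590 CPM in DMSO. At 24 h it was 3976 to 4141 CPM with the combination and 3968 to 4043 CPM with MMS, against 3202 to 3252 CPM with sorafenib and 3063 to 3294 CPM in DMSO. In these bulk libraries, a change in the share of cells in a phase and a change in RNA per cell cannot be told apart, and the part of the cell cycle lists in the changes of the members was not tested.

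Without the block, edgeR called 0 genes of these 6 lists in the comparisons of sorafenib with DMSO, of the combination with MMS and in the interactions. With the block there were calls in 2 of these comparisons, whose genes are named here after their values were seen. After 24 h of sorafenib, CCNA2 (adjusted p = 0.00147 with the block and 0.120 without) was higher and CCNE1 (0.0111 and 0.0828) lower, against 7.18% of all genes called with the block. For the combination against MMS at 8 h, against 9.51% of all genes, the block called RFC4 higher and RIF1, CCNE1, PPM1D and CENPE lower. Of the S phase list it called 5 higher and 1 lower there.

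**Figure D4:**
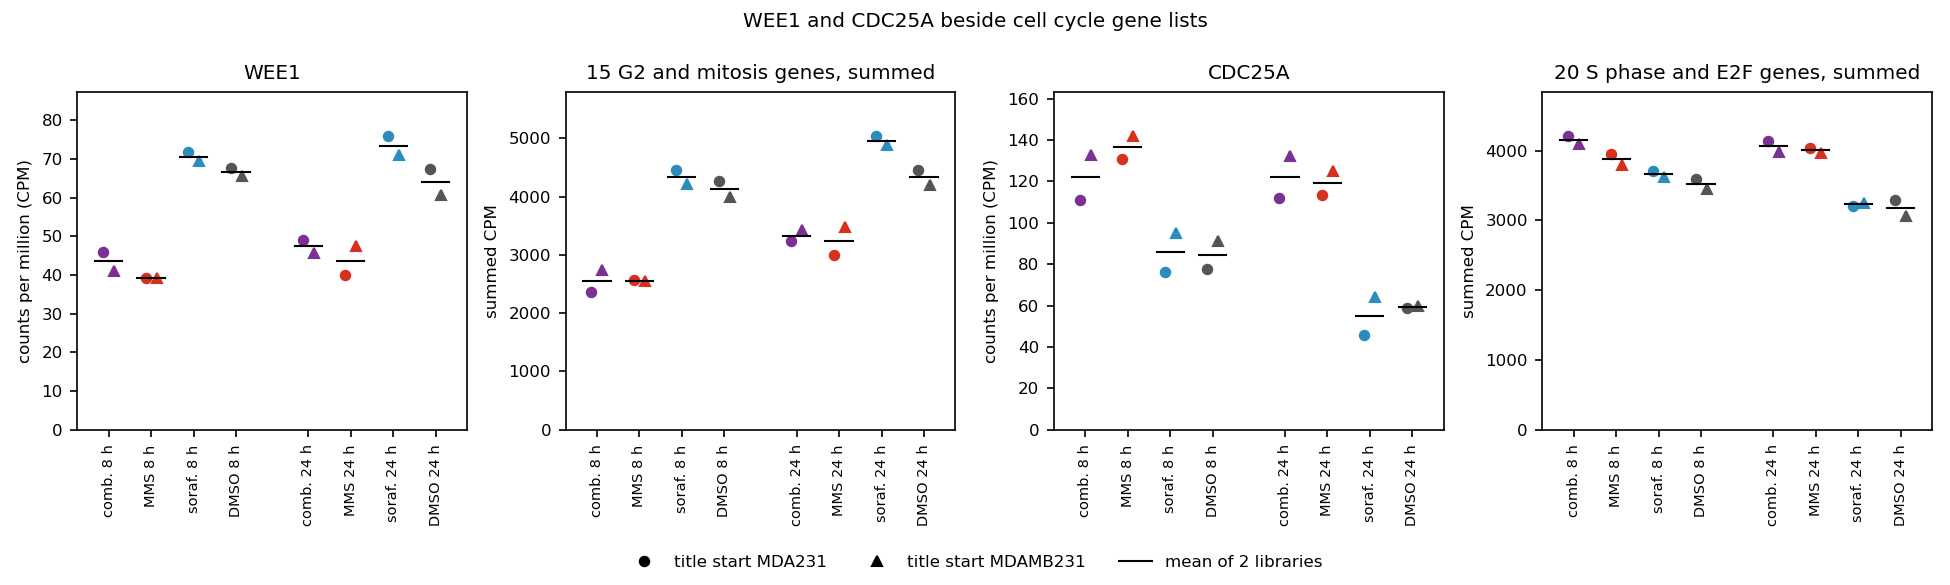
CPM of WEE1 and CDC25A beside the summed CPM of 15 G2 and mitosis genes and of 20 S phase and E2F genes in the 16 libraries; points are libraries, shapes title starts and lines means of 2. WEE1 and the G2 and mitosis sum are low in the 8 libraries with MMS, where CDC25A and the S phase sum are high. Gene by gene the S phase list was mixed, with 4 risen and 3 fallen after 8 h of MMS and 7 and 3 after 24 h.

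Likeness of pattern was measured by Pearson's r of mean log2 CPM over the 8 groups, as a description of points that share treatments and libraries. The 3 genes nearest to WEE1 were CDC20 (r = 0.997), ADAM10 and TMEM19, and those nearest to CDC25A were EIF2S1 (r = 0.997), YTHDF1 and RPF2. CLSPN was nearest to INTS7 (r = 0.992), NUP107 and GLMN, and ATRIP to UMPS (r = 0.997), PIGW and SLC25A25. ATM was nearest to SETD5 (r = 0.983), ESCO1 and C10orf118, and ATR to ACSL4 (r = 0.989), VKORC1L1 and FRMD6. CHEK1 was nearest to YAF2 (r = 0.981), PRR24 and CRELD2, and CHEK2 to ZFP14 (r = 0.984), RNF150 and CABIN1. TOPBP1 was nearest to FAM65A (r = 0.972), FBXL18 and ADPGK, and TP53BP1 to SMARCC2 (r = 0.992), SUDS3 and HERC4. With 8 points and 13948 candidate genes, values this high were found for each of the 10 members.

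Among the members themselves, ATRIP and CDC25A were most alike, with r = 0.981 over the 8 groups, and CLSPN and CDC25A had r = 0.905. WEE1 ran opposite to CDC25A (r = -0.850) and to CLSPN (r = -0.846). The kinases ATM and ATR had r = 0.100.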

How the data were processed

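Total RNA of the 16 libraries was prepared by Illumina TruSeq protocols, per the labels' protocols. The submitters' processing notes name CASAVA 1.8.2, TopHat2 2.0.8b, HTSeq and hg19. The deposited files hold whole-number read counts per gene, with no normalization by the authors. Whether counting used strand, and the aligner settings, are not given in the sources used here. The 5 counter rows were left out of totals. They held 6.88% to 7.94% of a file's reads with no gene, 1.03% to 1.18% ambiguous and 29.5% to 31.5% not uniquely aligned.

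Levels are CPM of the gene total. Tests used edgeR 4.0.16 in R 4.3.3: TMM scaling (factors 0.954 to 1.06), filterByExpr, 1 mean for each of 8 groups, 8 residual degrees of freedom, quasi-likelihood F tests and Benjamini-Hochberg adjustment over 13948 genes. SE is the size of the log2 change divided by the square root of F, and 95% intervals use the t distribution on 8 degrees of freedom. The procedure was tested on simulated data. P-values measure the spread between 2 libraries a group. Alternatives were DESeq2 1.42.0, other scaling and filters, a replicate block, the compared libraries alone, and each library left out.

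Titles begin MDA231 or MDAMB231. Libraries with the same title start deviated together from their group means, with correlations of 0.489 to 0.707 (median 0.638) over all 28 pairs of groups, so the title start was taken as a pairing from the data. The labels do not say what it marks.

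All 10 members are named, with up to 4 genes of smallest p from each other list in MMS against DMSO at each time, and the 3 genes most like each member. CDC25B and CDC25C are named too, as the other CDC25 genes. Members, lists and motifs were chosen with earlier results of these data known. Exon lengths, overlaps (GENCODE v29) and promoters (RefSeq, GRCh38.p14) come from a later build than the counts, and no coordinates were converted.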

Additional observations from a re-analysis of the deposited data

How the results depend on the processing

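With 2 libraries a group, many small changes may have gone undetected, more so without the replicate block. The common biological variation in edgeR was 0.136 without the block and 0.0632 with it. With the replicate block, the number of members called was 5 in place of 3 for MMS against DMSO at 8 h, 4 in place of 2 for the combination against DMSO at 8 h, and 1 in place of 0 for the combination against MMS at 8 h, for DMSO at 24 h against 8 h and for the MMS effect at 24 h minus 8 h. It was 5 in place of 4 for MMS and for the combination against DMSO at 24 h. Apart from calls of ATM, ATR, ATRIP and CDC25A given with the results, the block changed no call of a member. DESeq2 called 1 member in DMSO at 24 h against 8 h. It also called ATR in the combination against DMSO at 8 h. A fit of the compared libraries alone called 1 member in the combination against DMSO at 8 h. In such fits TOPBP1 lost its calls at 24 h, with MMS and with the combination, as given with the results. Leaving out 1 library at a time gave 1 to 3 members called for the combination against DMSO at 8 h, 2 for MMS at 8 h, and 3 to 4 for MMS and for the combination at 24 h.

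Over all genes, the block called 6036 in place of 3694 for MMS at 8 h, 6730 in place of 4394 at 24 h, 5514 in place of 3389 for the combination against DMSO at 8 h, and 7044 in place of 4663 at 24 h. It called 702 in place of 55 for sorafenib at 8 h, 1001 in place of 114 at 24 h, 1326 in place of 87 for the combination against MMS at 8 h, 283 in place of 17 at 24 h, 1902 in place of 92 between DMSO times, and 3561 in place of 1273 for the MMS effect at 24 h minus 8 h. DESeq2 called 177 and 294 for sorafenib, 366 and 86 for the combination against MMS, at 8 h and 24 h, and 531 between DMSO times. The compared libraries alone gave 2714 for MMS at 24 h, 1948 for the combination against DMSO at 8 h, 4 and 5 for sorafenib, 29 and 5 for the combination against MMS, 0 between DMSO times and 776 for the MMS effect at 24 h minus 8 h.

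The members whose estimates changed sign were not called. Without scaling factors, the interaction of CHEK1 at 8 h was 0.053 and the MMS change at 24 h was 0.0053 for ATR and 0.029 for CHEK2. With a mean count of at least 50, the interaction of CHEK1 at 8 h was 0.016. Leaving out libraries one by one, the log2 change with MMS ran from -0.0049 to 0.15 for TOPBP1 at 8 h, and at 24 h from -0.18 to 0.11 for ATR, -0.021 to 0.074 for CHEK1 and -0.036 to 0.035 for CHEK2. With sorafenib at 8 h it ran from -0.26 to 0.083 for ATM, -0.12 to 0.18 for CDC25A and -0.055 to 0.093 for CLSPN, and at 24 h from -0.36 to 0.084 for CDC25A and -0.033 to 0.35 for CLSPN. Combination against DMSO at 8 h ran from -0.21 to 0.072 for ATM. Combination against MMS ran from -0.035 to 0.11 for CHEK1 at 8 h, and at 24 h from -0.090 to 0.15 for CDC25A and -0.065 to 0.14 for CLSPN. The interaction ran from -0.091 to 0.069 for CHEK1 at 8 h and from -0.051 to 0.40 for CDC25A at 24 h. The cause of these shifts was not tested.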

Other observations

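The libraries with the title start MDAMB231 had more ATRIP and more CDC25A than their MDA231 counterparts in 8 of 8 groups, by a median of 0.32 and 0.23 on the log2 CPM scale. ATM, ATR, CLSPN, WEE1 and TP53BP1 were higher in the MDAMB231 library in 1 of 8 groups each, TOPBP1 in 2, CHEK2 in 3 and CHEK1 in 5. For ATM, ATR, CLSPN and TP53BP1, that 1 group was the combination at 8 h. For WEE1 it was MMS at 24 h. The part of the title start in the values of the members was not tested beyond the replicate block.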
